A study of Homo sapiens with 6 samples.

Results

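MITF, SOX10 and the pigment genes were followed in A375 cells, an established human melanoma cell line, after silencing of FAH, the last enzyme of tyrosine breakdown. The group was fixed as 10 genes of the melanocyte lineage: the transcription factors MITF, SOX10, PAX3 and TFAP2A, the melanin enzymes TYR, TYRP1 and DCT, the melanosome proteins PMEL and MLANA, and the melanosome transporter OCA2. Of the 10, 9 were found among the 18372 genes tested, and DCT was not analysed here. Cells transfected with siFAH (3 arrays) were compared with cells transfected with a negative control siRNA (3 arrays), all taken 72 h after transfection. Both groups are the same line, and the arrays of each group are described as biological triplicates. The labels read siFAH and do not say which of the study's FAH siRNAs was used. Each Affymetrix Human Gene 1.0 ST array read total RNA of 1 sample, as 1 log2 signal per probe set.

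Melanocytes make melanin from tyrosine inside melanosomes, so tyrosine is the starting material of the pigment pathway as well as of the breakdown pathway that ends with FAH. TYR carries out the first and limiting step, TYRP1 and DCT act further along the pathway, PMEL forms the fibrils on which melanin is laid down, and OCA2 helps set the ion balance of the melanosome. MITF is the master factor of this program and binds short motifs in the promoters of the enzymes, while SOX10 and PAX3 act upstream of MITF and TFAP2A works beside it. Melanoma cells can keep the lineage factors with little pigment, and lines differ in how far the program is switched on.

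Promoters of 4 members, TYR, TYRP1, OCA2 and DCT, hold the core motif that MITF binds, CATGTG, and those of the 3 that were measured are shown for that reason. The sequences come from RefSeq (GRCh38.p14), run 5′ to 3′ on the strand of the gene, and cover 250 bases before the start site and 50 from it on. Capitals mark CATGTG, or CACATG where the motif lies on the other strand. The TYR window is chr11:89177625-89177924 (plus strand), the TYRP1 window is chr9:12693135-12693434 (plus strand) and the OCA2 window is chr15:28099266-28099565 (minus strand).
TYR: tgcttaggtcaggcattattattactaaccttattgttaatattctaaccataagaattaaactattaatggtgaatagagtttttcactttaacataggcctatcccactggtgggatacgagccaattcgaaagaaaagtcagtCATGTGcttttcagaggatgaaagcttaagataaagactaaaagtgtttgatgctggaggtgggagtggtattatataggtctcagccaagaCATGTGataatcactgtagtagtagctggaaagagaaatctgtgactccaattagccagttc
TYRP1: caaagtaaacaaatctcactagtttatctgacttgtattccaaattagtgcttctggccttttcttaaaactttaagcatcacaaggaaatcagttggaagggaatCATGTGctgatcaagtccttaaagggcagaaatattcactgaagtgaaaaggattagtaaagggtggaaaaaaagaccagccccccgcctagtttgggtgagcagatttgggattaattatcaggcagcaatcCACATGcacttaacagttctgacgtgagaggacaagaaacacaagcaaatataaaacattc
OCA2: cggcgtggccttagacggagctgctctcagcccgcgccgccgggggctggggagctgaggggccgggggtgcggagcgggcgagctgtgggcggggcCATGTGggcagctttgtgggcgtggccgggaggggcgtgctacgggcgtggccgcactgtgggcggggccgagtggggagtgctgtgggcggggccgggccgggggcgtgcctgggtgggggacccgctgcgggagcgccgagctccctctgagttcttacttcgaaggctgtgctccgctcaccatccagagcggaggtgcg

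Windows were matched for 8 of the 10 genes, 12 windows in all, and not for SOX10 and PMEL. The TYR window holds CATGTG 104 and 12 bases before the start, counted to its first letter. The TYRP1 window holds it 144 bases before the start and, on the other strand, 11 bases before. OCA2 holds it once, 153 bases before the start. One of the DCT windows holds it 134 bases before the start and, on the other strand, 215 bases before, and the MITF, PAX3, TFAP2A and MLANA windows hold none. Of all 35116 windows of this length, 11.1% hold the motif on either strand and 1.46% hold it at least 2 times. A related motif, CACGTG, is in 7.26% of all windows and in none of the members' windows. The SOX core ACAAAG, searched on both strands, is in 16.1% of all windows. Among the members it is in the OCA2 window, 142 bases before the start, and in 1 of 3 MITF windows. That MITF window is chr3:69763561-69763860, with the motif 189 bases before its start. The MITF windows chr3:69739214-69739513 and chr3:69936342-69936641 hold none. These letters describe the windows and do not show binding.

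The knockdown was read first. FAH had log2 signals of 4.92, 4.60 and 4.92 in the siFAH arrays, against 5.48, 5.59 and 5.68 in the control arrays. The groups did not overlap, and FAH fell by 0.77 on the log2 scale (standard error 0.10, adjusted p = 0.00213 by limma). Array medians lay between 4.92 and 5.04, and arrays correlated at 0.995 to 0.997 within groups and at 0.987 to 0.995 between groups over the genes tested. Limma, applied to all 18372 genes with Benjamini-Hochberg adjustment, called 9.86% of genes at an adjusted p under 0.05, 3.48% as higher and 6.38% as lower in siFAH cells. Lower genes were thus 64.7% of the calls, and 80.1% with each array centred on its median. The files carry no detection call, so a background line was drawn at 4.41, the 95th percentile of the mean signals of 339 olfactory receptor genes, a family largely silent outside the nose. Of all genes, 71.0% lay above it. Melanocyte lineage markers split around this line, with MITF, SOX10, S100A1 and S100B above it and PMEL, MLANA, TYR and TYRP1 not. By this line, these A375 cells gave signal for the first 4 of these markers but not for those of pigmented cells. The brightest olfactory receptor gene had a mean signal of 5.34, close to the 5.54 of S100A1.

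**Figure D1:**
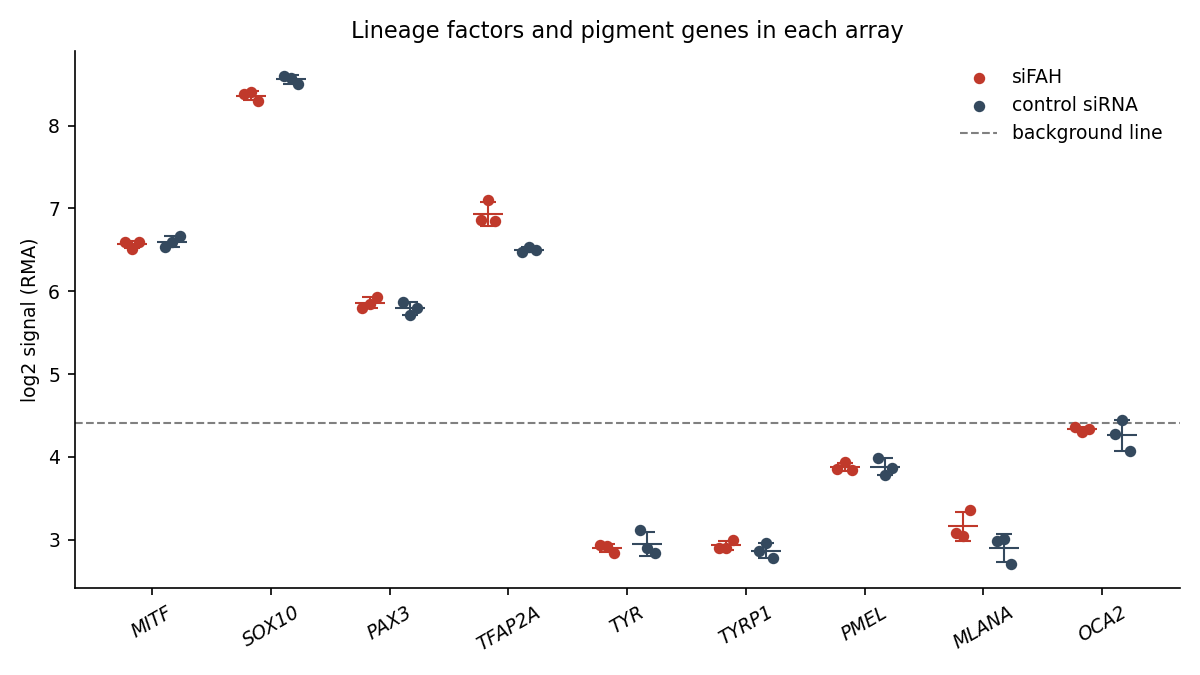
Log2 signal (vertical axis) of the 9 measured genes in each array, siFAH in red and control siRNA in blue, with the mean and SD of 3 arrays as bars. MITF, SOX10, PAX3 and TFAP2A lie above the dashed background line at 4.41, TFAP2A is higher and SOX10 lower in all siFAH arrays, and the pigment genes lie at or below the line in all but 1 OCA2 value.

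TFAP2A rose after FAH silencing and was the only one of the 9 measured genes to pass the test. TFAP2A (chr6:10396677-10419659) encodes AP-2 alpha, a factor of neural crest and melanocyte development. Its log2 signals were 6.86, 7.10 and 6.84 in the siFAH arrays, against 6.47, 6.54 and 6.50 in the control arrays. Every siFAH value was above every control value, and siFAH replicate 2 was the highest. The log2 fold change was 0.43 (standard error 0.08, 95% interval 0.25 to 0.61, adjusted p = 0.0109 by limma), a ratio of 1.35. In bulk RNA, more TFAP2A RNA per cell and a larger share of cells with it cannot be told apart. As each array was left out the adjusted p stayed between 0.0162 and 0.0394, and by the methods' t-test the adjusted p was 0.129. Of the 1837 genes in the same decile of mean signal, 1.63% had a log2 fold change as high.

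SOX10 (chr22:37972312-37984555), which specifies the melanocyte lineage and activates MITF, did not pass the test. It had log2 signals of 8.38, 8.41 and 8.30 in the siFAH arrays, against 8.59, 8.58 and 8.50 in the control arrays. The groups did not overlap, and the gap was narrow. The log2 fold change was -0.19 (standard error 0.07, 95% interval -0.34 to -0.05), with an unadjusted p of 0.0153 and an adjusted p of 0.0957 by limma. The estimate depended on how arrays were scaled, with -0.12 after quantile normalization (adjusted p = 0.294), -0.11 after cyclic loess (0.373) and -0.25 with each array centred on its median (0.0471). The array weights, the trend and robust fit and SAM also put it under 0.05, at 0.0357, 0.0498 and 0.0335. Bright genes read lower in siFAH arrays as a whole: SOX10 lies in the brightest decile of genes, whose median log2 fold change was -0.11, and 30.9% of those 1838 genes had a value as low.

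MITF (chr3:69739464-69968332) had log2 signals of 6.59, 6.51 and 6.59 in the siFAH arrays, against 6.53, 6.60 and 6.66 in the control arrays. The 2 groups overlapped. The log2 fold change of -0.03 had a standard error of 0.07 (adjusted p = 0.812 by limma), and its 95% interval of -0.18 to 0.12 bounds the change at this number of arrays. The probe set is annotated to several MITF transcripts, the melanocyte form among them, so these isoforms were not separated. PAX3 (chr2:222199887-222298998), a paired-box factor that acts on the MITF promoter, had 5.80, 5.85 and 5.93 in the siFAH arrays, against 5.87, 5.71 and 5.80 in the control arrays. Its groups overlapped too, and the log2 difference was 0.07 (standard error 0.07, 95% interval -0.09 to 0.23, adjusted p = 0.599).

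**Figure D2:**
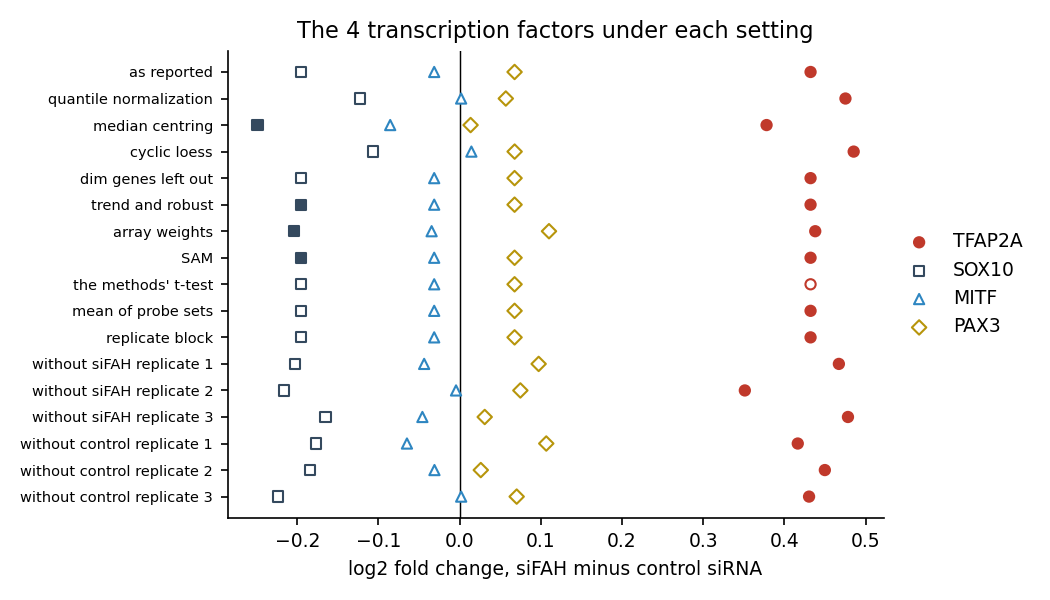
Horizontal axis, log2 fold change of siFAH over control siRNA, for the 4 lineage factors as reported and under 16 other settings (rows). Filled symbols have an adjusted p under 0.05: TFAP2A is filled in all rows but that of the methods' t-test, SOX10 in 4 rows, and MITF and PAX3 in none, with MITF on either side of 0.

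The pigment genes gave little signal in either group. TYR (chr11:89177875-89295759) had log2 signals of 2.94, 2.92 and 2.84 in the siFAH arrays, against 3.11, 2.90 and 2.84 in the control arrays. TYRP1 (chr9:12693385-12710285) had 2.90, 2.90 and 2.99 in the siFAH arrays, against 2.86, 2.97 and 2.78 in the control arrays. Both melanin enzymes lay near the median of the olfactory receptor genes, 2.98, and their groups overlapped. Their log2 fold changes were -0.05 for TYR (95% interval -0.23 to 0.13, adjusted p = 0.756 by limma) and 0.06 for TYRP1 (95% interval -0.10 to 0.22, adjusted p = 0.634). A second probe set of TYR, left out because it was dimmer on average, averaged 2.95 ± 0.04 in the siFAH arrays and 2.85 ± 0.14 in the control arrays (SD, n = 3 each). Its difference of 0.10 ran opposite to that of the first.

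PMEL (chr12:55954105-55966709), the fibril protein, had log2 signals of 3.85, 3.94 and 3.84 in the siFAH arrays, against 3.99, 3.79 and 3.87 in the control arrays. Its groups overlapped, with a log2 fold change of -0.0047 (95% interval -0.17 to 0.16, adjusted p = 0.978 by limma). MLANA (chr9:5890889-5910606), a melanosome protein known as a melanoma antigen, had 3.09, 3.04 and 3.36 in the siFAH arrays, against 2.98, 3.01 and 2.71 in the control arrays. All siFAH values of MLANA were above all control values, though no array reached the background line. Its log2 fold change was 0.26 (standard error 0.11, 95% interval 0.03 to 0.50), with an unadjusted p of 0.0319 and an adjusted p of 0.148. OCA2 (chr15:27719008-28099315) had 4.36, 4.31 and 4.34 in the siFAH arrays, against 4.27, 4.44 and 4.07 in the control arrays. The spread among control arrays of OCA2 (SD 0.19, n = 3) was wider than its log2 fold change of 0.07 (adjusted p = 0.659), and control replicate 2 was its only value above the background line. For signals at this level a fold change understates any true change, so these intervals bound the signals and not the transcripts.

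**Figure D3:**
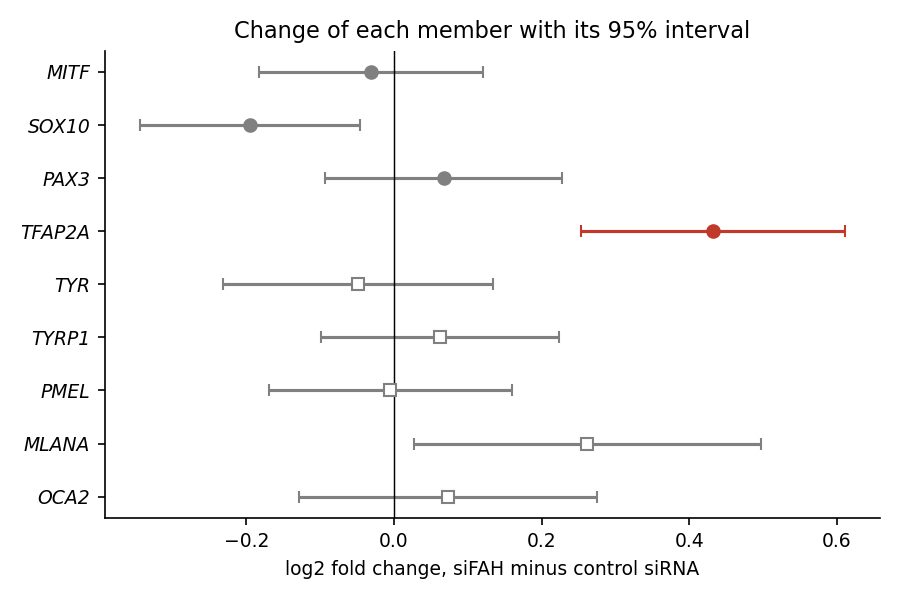
Horizontal axis, log2 fold change of siFAH over control siRNA, for each of the 9 genes with its 95% interval from limma, red where the adjusted p is under 0.05. Filled circles are genes above the background line and open squares genes not above it, and 6 of the 9 intervals include 0.

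As a group, 1 of the 9 measured genes was higher and none was lower at an adjusted p under 0.05 by limma, 3 had an unadjusted p under 0.05, and SAM called 2. All 9 were kept in the test, 4 of them above the background line and 5 not. The share called, 11.1%, is close to the 9.86% of all genes. Groups did not overlap for 3 members, against 32% of all genes: TFAP2A and MLANA were higher (13.4% of all genes) and SOX10 was lower (18.6% of all genes). The median log2 fold change was 0.06, against 0.0050 over all genes. Dim genes read slightly higher as a whole: the median was 0.048 for all genes not above the background line, where 5 of the 9 lie. It was -0.022 for all genes above the line. The pattern of MITF over the 6 arrays was most like that of METTL18, DERL2, B4GALNT3, ASB6 and SPRYD4 among genes above the background line (Pearson r from 0.972 to 0.977, the highest of that set). None of these 5 was called, nor was MITF. They were picked as the highest of a large set over only 6 arrays, so their r values do not show a link to MITF. The other 8 members had r between -0.66 and -0.03 with MITF over the same 6 arrays, which share their normalization. The lowest were those of TYR (-0.66) and PMEL (-0.65), neither of them above the background line. MITF itself ran only from 6.51 to 6.66 with overlapping groups, so no relation to MITF is read from these r values.

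Other genes of the lineage were then read from the same fit, in lists drawn up around the members. Of 26 other lineage transcription factors, MITF relatives and MITF repressors, 4 were higher, none was lower and 22 were not called. The share called was 15.4%, beside 9.86% of all genes and 12.8% of all genes above the background line. The median log2 fold change was -0.01, against 0.0050 for all genes. SOX2, a stem cell and neural progenitor factor of the same family as SOX10, rose most. Its log2 signals were 7.01, 7.11 and 7.15 in the siFAH arrays, against 6.26, 6.25 and 6.28 in the control arrays. The gap between groups was far wider than the spread within them, with a log2 difference of 0.83 (standard error 0.07) and, by limma, an adjusted p of 0.000494. SOX2 lies within the annotated span of the noncoding gene SOX2-OT, and signal from that transcript was not separated.

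SNAI2, a zinc finger factor needed for melanocyte development and also counted among factors of migration, had log2 signals of 6.84, 6.77 and 6.84 in the siFAH arrays, against 6.07, 6.14 and 6.28 in the control arrays. The T-box factors TBX2 and TBX3, which hold back senescence in melanoma cells, had log2 fold changes of 0.27 (adjusted p = 0.0278) and 0.24 (adjusted p = 0.0436). Both of these calls were lost without siFAH replicate 1, 2 or 3 or control replicate 2 or 3 (adjusted p from 0.0586 to 0.137), and with arrays centred on their medians. The 4 higher factors became 2 in each of those fits. SOX5, which modulates SOX10, had -0.26 (adjusted p = 0.136). The MITF relatives TFE3 and TFEB had -0.10 and 0.06, and the MITF repressor POU3F2 had -0.11, none of them called. TFE3, TFEB and POU3F2 were named after their values were seen.

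Among genes that signal to MITF, 1 of 20 measured was higher, 1 was lower and 18 were not called, with a median of -0.03 and a share called that is close to the 9.86% of all genes. EDN3, an endothelin ligand that drives melanocyte growth, had log2 signals of 4.64, 4.71 and 4.67 in the siFAH arrays, against 4.37, 4.32 and 4.14 in the control arrays. All siFAH values of EDN3 lay above the background line and all control values below it, with a log2 fold change of 0.40 (adjusted p = 0.0119 by limma, 0.0506 without siFAH replicate 2). The kinase RPS6KA1, an effector of ERK that can act on MITF, had -0.33 (adjusted p = 0.0434). That call was lost without siFAH replicate 2 or 3 or control replicate 1 or 3 (0.0695 to 0.141), after quantile normalization and after cyclic loess, so the 2 calls became 0 without siFAH replicate 2 and 1 without the other 3 arrays. The Wnt receptor FZD7 had -0.25 (adjusted p = 0.103) and the ligand WNT3A had 0.22 (0.0964). The receptors of melanocyte signals, named after their values were seen, were MC1R with -0.02, KIT with -0.06 (its signal not above the background line) and EDNRB with -0.13, none called.

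**Figure D4:**
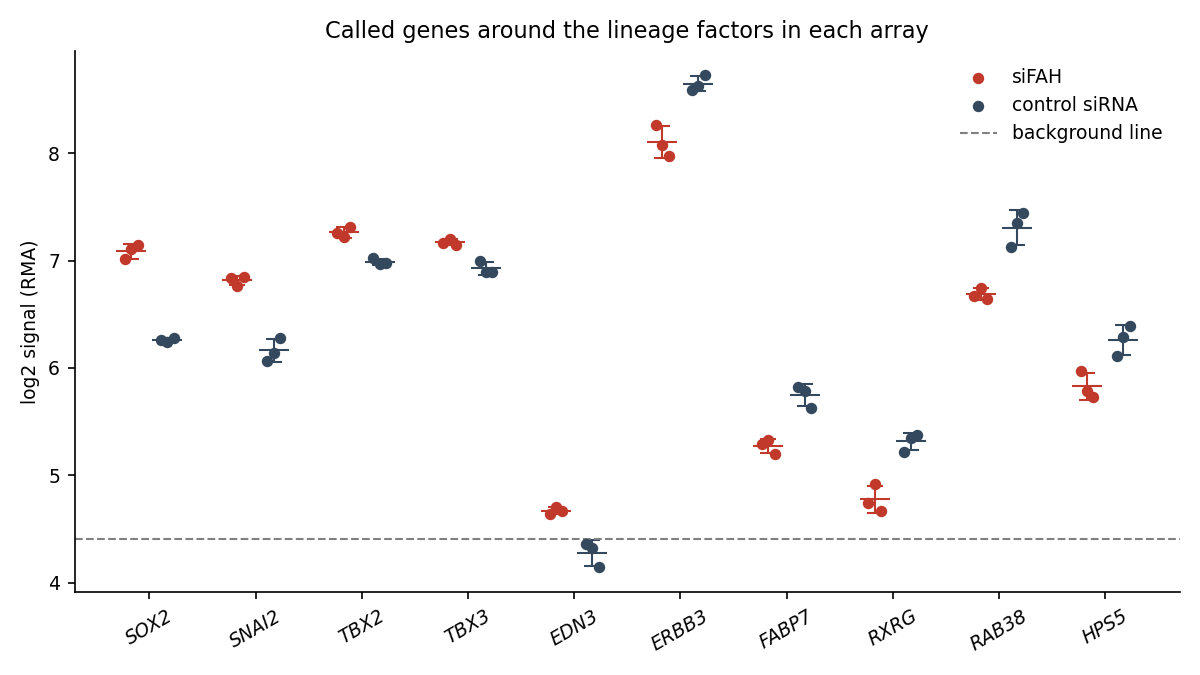
Log2 signal (vertical axis) in each array of 10 called genes around the lineage factors, siFAH in red and control siRNA in blue, with the mean and SD of 3 arrays as bars and the background line dashed. SOX2, SNAI2, TBX2, TBX3 and EDN3 are higher and ERBB3, FABP7, RXRG, RAB38 and HPS5 lower in siFAH arrays, with no overlap between groups in any of the 10.

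Of the genes reported as SOX10 targets in glia or melanoma cells, 2 of 7 measured were lower and 5 were not called, beside 6.38% of all genes called lower. ERBB3, a receptor of neuregulin, had log2 signals of 8.27, 8.08 and 7.97 in the siFAH arrays, against 8.59, 8.62 and 8.72 in the control arrays. It fell by 0.54 on the log2 scale (standard error 0.09, adjusted p = 0.00524 by limma). FABP7, a fatty acid binding protein of glia and melanoma cells, had 5.29, 5.33 and 5.20 in the siFAH arrays, against 5.82, 5.79 and 5.63 in the control arrays. It fell by 0.47 (standard error 0.08, adjusted p = 0.00535). Both groups of values stood apart for each gene, and both calls held in every fit that left out 1 array. The other targets lay between -0.08 for GJB1 and 0.07 for S100B (adjusted p = 0.658), and the median of the 7 was 0.04.

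Most reported MITF targets outside pigmentation were not called. Of 52 measured, 2 were higher, 5 were lower and 45 were not called, a share of 13.5% beside the 9.86% of all genes and the 12.8% of all genes above the background line, with a median of 0.0079. SEMA6A, a semaphorin, was higher with a log2 fold change of 1.08, and CDK2, a cell cycle kinase, was lower with -0.69. INPP4B, a phosphoinositide phosphatase, had 7.23, 7.23 and 7.10 in the siFAH arrays, against 7.52, 7.57 and 7.72 in the control arrays (log2 fold change -0.42, adjusted p = 0.0109 by limma). These 3 calls held as each array was left out. MET, the receptor of hepatocyte growth factor, had -0.44 (adjusted p = 0.0170, and 0.0523 to 0.0678 without siFAH replicate 2 or 3). DIAPH1, a formin (-0.27), the hypoxia factor HIF1A (-0.28) and the GTPase RHOQ (0.27) were also called. DIAPH1 and RHOQ were lost without any 1 array (adjusted p from 0.0522 to 0.139), and HIF1A without siFAH replicate 1, 2 or 3 or control replicate 2 or 3 (0.0549 to 0.110). Other scalings also ended these calls. Quantile normalization ended that of DIAPH1 (0.0876), cyclic loess those of DIAPH1 (0.117) and HIF1A (0.0710), and median centring that of RHOQ (0.0933). The RHOQ call was also lost with the mean of its probe sets in place of the brightest (0.0654). The 7 calls became 3 without siFAH replicate 2 or 3, 4 without siFAH replicate 1 or control replicate 2 or 3, and 5 without control replicate 1.

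Melanosome genes other than the members were mostly read without a call. Of 35 measured, none was higher, 2 were lower and 33 were not called, with a median of -0.03. The share called was 5.71%, beside 9.86% of all genes and 12.8% of all genes above the background line. RAB38, a GTPase that sends TYR and TYRP1 to the melanosome, had log2 signals of 6.67, 6.75 and 6.64 in the siFAH arrays, against 7.12, 7.35 and 7.44 in the control arrays. It fell by 0.62 on the log2 scale (standard error 0.09, adjusted p = 0.0032 by limma), and its call held as each array was left out. HPS5, a subunit of the BLOC-2 complex of melanosome sorting, had 5.97, 5.79 and 5.73 in the siFAH arrays, against 6.11, 6.28 and 6.39 in the control arrays. Its log2 fold change was -0.43 (adjusted p = 0.0176), and without siFAH replicate 2 or 3 or control replicate 2 or 3 the adjusted p was 0.0644 to 0.0707, leaving RAB38 as the 1 call. HPS3, another BLOC-2 subunit, had -0.25 (adjusted p = 0.139), and the motor KIF13A had -0.22 (0.121). SLC45A2, SLC24A5 and GPR143, which like TYR mark pigmented cells, were not above the background line, while the melanosome glycoprotein GPNMB had a mean of 8.29 ± 0.06 in the siFAH arrays and 8.25 ± 0.17 in the control arrays (SD, n = 3 each). The choice of those last 4 genes was made with their values in view.

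**Figure D5:**
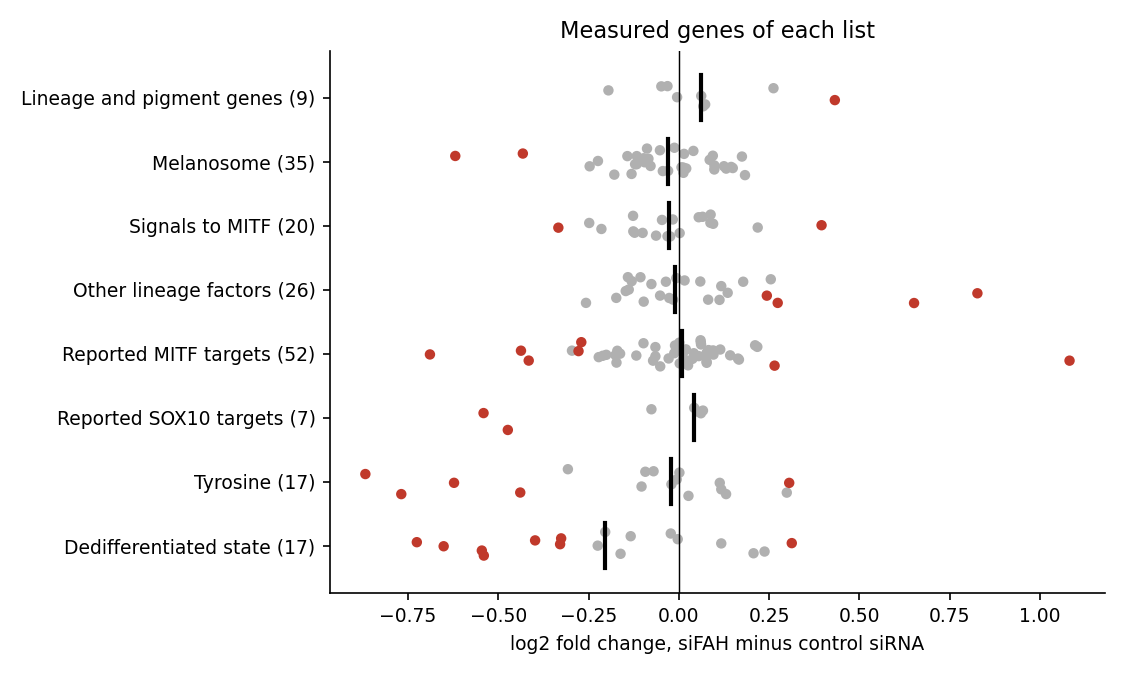
Horizontal axis, log2 fold change of siFAH over control siRNA, for every measured gene of the 8 lists, with the number of genes in parentheses. Red points have an adjusted p under 0.05 and the black bar is the median, from -0.20 for markers of the dedifferentiated state to 0.06 for the lineage and pigment genes.

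Transcripts of both chains of one tyrosine carrier fell. SLC7A5, which imports tyrosine with other large neutral amino acids, had log2 signals of 8.05, 7.90 and 8.01 in the siFAH arrays, against 8.70, 8.87 and 8.99 in the control arrays. Its partner SLC3A2 had 7.41, 7.27 and 7.27 in the siFAH arrays, against 7.79, 7.93 and 8.11 in the control arrays, with a log2 fold change of -0.62 (adjusted p = 0.00331 by limma). The groups stood apart for both. The other tyrosine carriers listed were not called, SLC16A10 with -0.07 (adjusted p = 0.716) and SLC7A8, not above the background line, with 0.13 (adjusted p = 0.576). Of 17 measured genes of tyrosine uptake, synthesis, breakdown and related reactions, 1 was higher, 4 were lower and 12 were not called. The share called, FAH included, was 29.4%, beside 9.86% of all genes and 12.8% of all genes above the background line, with a median of -0.02. The 4 include FAH, the target of the siRNA, and GOT1, which transfers the amino group of aspartate and can act on tyrosine (-0.44). The higher gene was DDT, D-dopachrome tautomerase, which is not the melanin enzyme DCT (0.31, adjusted p = 0.0369 by limma). DDT overlaps a close relative, DDTL, with which probes may be shared. Its adjusted p was 0.0583 after median centring and 0.0512 to 0.125 without siFAH replicate 1, 2 or 3 or control replicate 2 or 3. GOT1 was not called without siFAH replicate 2 or control replicate 2 or 3 (0.0525 to 0.0584), and the 5 calls became 3 without each of those arrays.

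Markers of neural crest-like and undifferentiated melanoma cells were called lower more often than higher. Of 17 measured, 15 of them above the background line, 1 was higher, 7 were lower and 9 were not called, with a median of -0.20. The share called was 47.1%, beside 9.86% of all genes and 12.8% of all genes above the background line. In the brightest decile of genes, which holds TNC, THBS1 and AXL, 27.5% were called, with a median of -0.11. RXRG, a retinoid receptor used as a marker of the neural crest-like state, had log2 signals of 4.74, 4.92 and 4.67 in the siFAH arrays, against 5.22, 5.35 and 5.38 in the control arrays. It fell by 0.54 on the log2 scale (standard error 0.08, adjusted p = 0.00454 by limma). The adhesion molecule L1CAM had -0.33 (adjusted p = 0.0173), the enzyme NT5E had -0.40 (0.0110) and CCN2, a matrix-associated growth factor, had -0.33 (0.0222). TNC, THBS1 and AXL, of the undifferentiated state, were lower by 0.73, 0.65 and 0.55, and the receptor EGFR was higher by 0.31. L1CAM was lost without siFAH replicate 2 or 3 or control replicate 2 or 3 (adjusted p from 0.0504 to 0.0715), CCN2 without siFAH replicate 3 or control replicate 2 or 3 (0.0639 to 0.0893), and EGFR without siFAH replicate 1 or 2 or control replicate 2 or 3 (0.0939 to 0.111). The EGFR call was also lost with arrays centred on their medians (0.0682), with cyclic loess (0.0523) and with quantile normalization (0.0559). The 8 calls became 5 without control replicate 2 or 3. The 9 markers not called are named here with their values in view. The neural crest receptor NGFR had -0.20 (adjusted p = 0.0726 by limma), LOXL2 had -0.22 (0.0595), CAV1 had -0.16 and CCN1 had -0.13. AQP1, not above the background line, had -0.02, and PDGFRB had -0.0030. The ligand WNT5A had 0.24 (0.0734), JUN had 0.21 and GFRA2, not above the background line, had 0.12. Groups did not overlap for NGFR, LOXL2, CAV1, CCN1 and WNT5A. In the whole list, groups stood apart as lower for 11 markers and as higher for 2, against 18.6% and 13.4% of all genes.

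Markers of cells that a melanoma culture should lack were read beside these results. None of 5 endothelial markers, 2 of 5 keratinocyte markers (KRT14 and KRT10), 2 of 6 fibroblast markers (COL3A1 and LUM) and 2 of 5 leukocyte markers (LYZ and CD68) lay above the background line, and PTPRC, the marker of all leukocytes, had a mean signal of 2.50 in the siFAH arrays and 2.32 in the control arrays. The mean signal of the leukocyte list ran from 4.86 to 4.96 in the siFAH arrays and from 4.84 to 4.94 in the control arrays. That of the keratinocyte list ran from 4.20 to 4.40 in the siFAH arrays and from 4.09 to 4.26 in the control arrays. The fibroblast list ran from 4.14 to 4.20 in the siFAH arrays and from 4.06 to 4.13 in the control arrays, and the endothelial list from 3.78 to 3.79 in the siFAH arrays and from 3.67 to 3.77 in the control arrays. For these last lists every siFAH array was above every control array, with means below the background line and no marker called. CD68, a lysosomal glycoprotein, was higher by 0.49 (adjusted p = 0.00263 by limma), KRT10 was higher by 0.45 (0.0213), and LYZ was lower by 0.51 (0.0147). The part of these markers in the results above was not tested.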

How the data were processed

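Total RNA of A375 cells was profiled on 6 Affymetrix Human Gene 1.0 ST arrays, 3 per group. The deposited values are log2 signals that the authors made by RMA with global scaling. Its version is not given in the sources used here, and the sources differ on the RNA and labeling kits. Probe sets with 1 gene symbol (19291 of 28829) were kept, the brightest per symbol, which left 18372 genes. siFAH was compared with control siRNA with limma 3.58.1 (R 4.3.3; lmFit, then eBayes) on all genes, two-sided. Calls were made at a Benjamini-Hochberg adjusted p under 0.05. SAM, which the methods used with a fold-change cutoff, was an alternative without that cutoff, at q under 0.05 with 20 arrangements of the labels. The methods' t-test was another, with its p adjusted here over all genes. Further alternatives were other scalings, a filter on dim genes, other variance models and leaving out each array. Fits were tested on simulated data. Labels give no batch. Arrays have no read depth, and their number limits the precision. Members and lists were chosen with earlier results of these data known. The text names all members, and in each list the 4 genes with the largest change and every called gene. Figures were drawn with matplotlib 3.10.9.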

Additional observations from a re-analysis of the deposited data

How the results depend on the processing

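TFAP2A was called under 15 of 16 alternatives, the exception being the methods' t-test. That test called 14 genes in all, 0 of the members and 0 in every list except the other lineage factors (1, SOX2). At an unadjusted p under 0.05 it counted 3934 genes and limma 4808. The number of genes called, 1811, was 2913 with array weights, 3038 by SAM and 657 to 1845 as each array was left out (711 without siFAH replicate 2, 657 without siFAH replicate 3, 739 without control replicate 2 and 727 without control replicate 3). Members called numbered 2, with SOX10 added, after median centring, with trend and robust, with array weights and by SAM, and 1 in every fit that left out an array. Signaling genes called were 1 after quantile normalization or cyclic loess, other lineage factors 2 after median centring and MITF targets 11 by SAM. As each array was left out, calls ran from 1 to 2 for melanosome genes, 0 to 2 for signaling genes, 2 to 4 for lineage factors, 3 to 5 for MITF targets, 3 to 6 for tyrosine genes and 5 to 9 for dedifferentiated state markers. No pairing by replicate number was seen: deviations from the group means correlated at -0.16, -0.09 and -0.27 for the 3 same-numbered pairs, and no array correlated best with its own number. Deviations from a group's own mean are not independent of each other, so these values cannot exclude a pairing. With the replicate number as a block, 761 genes were called, with 1 melanosome gene, 1 signaling gene, 2 lineage factors, 4 MITF targets and 5 dedifferentiated state markers, and TFAP2A kept its call (adjusted p = 0.0252).

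Values near 0 changed sign, none of them called. MITF was 0.0018 after quantile normalization and 0.014 after cyclic loess, and ran from -0.065 to 0.0019 as each array was left out. TYR was 0.027 with the mean of its probe sets (-0.10 to 0.033 as each array was left out). TYRP1 was -0.016 after quantile normalization, -0.0049 after cyclic loess and -0.0036 with array weights. PMEL was 0.056 with array weights (-0.053 to 0.051 as each array was left out), and OCA2 was -0.045 with array weights (-0.023 to 0.16). Calls of lower genes made up 64.7% of all calls, 80.1% after median centring and 56.2% after cyclic loess. The cause of these differences was not tested. With dim genes left out, the 5 pigment genes gave no value.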
